A study of Mus musculus with 6 samples.

Results

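The complement system genes are 36 genes, chosen by name alone from the 55450 genes in the count files, that encode the recognition molecules, proteases, pore-forming proteins, regulators and receptors of the complement cascade. Their names were matched through the versioned gene identifiers of GENCODE release M21, and the rule itself uses no measured value. That release lists C4a as a processed transcript rather than as protein-coding. The libraries are bulk RNA-Seq of primary hepatocytes from male C57BL/6 mice on a normal diet, 10 to 12 weeks old per the labels, with the cells isolated by 2-step collagenase perfusion. There were 3 libraries from undamaged livers (0 hours) and 3 from livers 48 hours after partial hepatectomy (PHx), an operation that takes out most liver lobes and sets off regrowth, each from its own hepatocyte preparation. The labels name no transgene or drug and no sham-operated group, so a response to surgery and a response to the loss of liver mass cannot be told apart in these libraries. The depth, as reads counted on genes, was 31419443 to 36346220 in the libraries at 0 hours and 31684152 to 33093006 in those at 48 hours, and 3 counts, taken as the floor of a library, correspond to 0.0825 to 0.0955 CPM (counts scaled to a common library size). Of the 36 genes, 33 had at least 10 counts in at least 3 libraries and were tested. C1s2, Cfd and C7 stayed below that limit.

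Complement is a cascade of plasma proteins that tags and lyses microbes and damaged cells. The classical pathway starts when C1q binds antibody or other ligands, the lectin pathway when mannose-binding lectins or ficolins bind sugars, and the alternative pathway turns over continuously on surfaces. All converge on cleavage of C3 and then of C5, after which C5b, C6, C7, C8 and C9 assemble into the membrane attack complex. Hepatocytes make most of the circulating components, whereas C1q and properdin come mainly from macrophages and other myeloid cells, and adipsin (Cfd) mainly from fat. C3 and some other components are acute-phase proteins, whose synthesis in liver rises in inflammation.

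Complement transcripts moved in both directions at 48 hours after PHx. C3, C4a, C4bp and Clu rose, and 14 genes fell, among them the proteases of the C1 complex and of the lectin pathway, C2, and 2 of the 3 genes for C8. By the quasi-likelihood test of edgeR, adjusted for all 17037 genes tested (Benjamini-Hochberg), 4 of the 33 members (12.1%) were higher and 14 (42.4%) were lower at an adjusted p under 0.05, and 15 did not pass. Over all genes tested, 21.4% were higher and 19.3% were lower. The share of lower genes was larger among abundant transcripts. Among the 1378 genes that averaged 100 CPM or more, a limit chosen after the data were seen, 15.8% were higher and 39.7% were lower, against 4 and 12 of the 22 members above that limit (18.2% and 54.5%). The median log2 fold change of the 33 members was -0.31, that of all genes tested was -0.0033, and that of the abundant genes was -0.23. The libraries of both time points did not overlap for 18 members (54.5%), close to the 52.7% of all genes tested. Normalization by library size only shifted the median log2 fold change of all genes to 0.20 and the share of higher genes among all calls from 52.5% to 71.6%, and with it 5 members were higher and 10 lower.

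**Figure D1:**
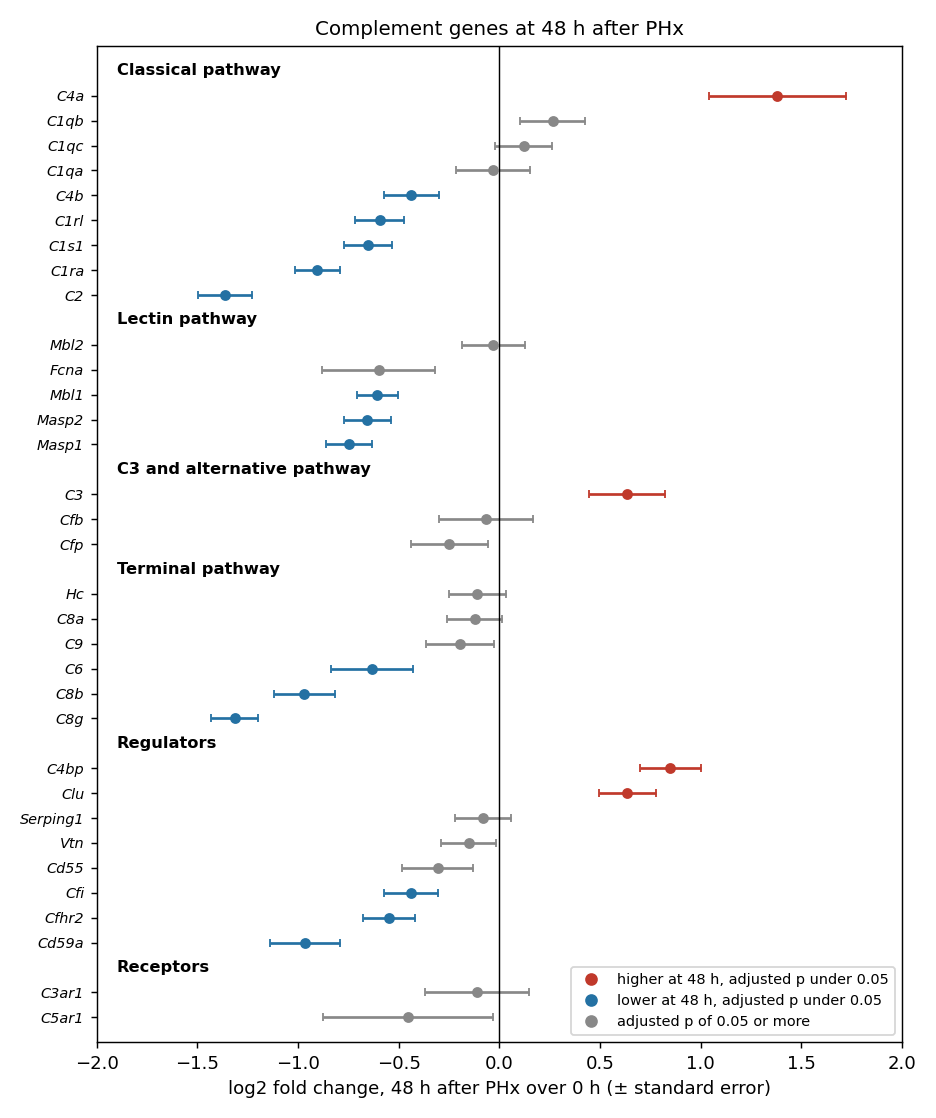
Log2 fold change of the 33 tested complement genes at 48 hours after PHx over 0 hours (x axis), ordered by pathway role (y axis). Points are edgeR estimates, bars are standard errors, red points were higher and blue points lower at an adjusted p under 0.05, and grey points did not pass; the 4 red points are C4a, C3, C4bp and Clu.

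The labelled cell type was checked against its markers and those of other liver cells. A list of 10 hepatocyte markers, which includes albumin and transferrin, summed to 115001 to 136000.0 CPM at 0 hours and 79243 to 97982 CPM at 48 hours. It was lower at 48 hours, with 5 of its genes lower and 1 higher in edgeR's test. The 10 Kupffer cell (liver macrophage) markers summed to 59.2 to 88.7 CPM at 0 hours and 89.5 to 113 CPM at 48 hours, with 4 of the 10 higher and none lower. The 9 endothelial markers summed to 263 to 408 CPM at 0 hours and 181 to 207 CPM at 48 hours, and all 9 were lower. The 7 stellate cell and fibroblast markers summed to 71.8 to 115 CPM at 0 hours and 63.0 to 75.9 CPM at 48 hours, with 1 higher and 1 lower. Replicate 1 at 0 hours held the least RNA of these 3 cell types among the libraries of undamaged liver. Neutrophil markers summed to at most 1.06 CPM in any library, with Mpo, Ltf and Retnlg at 0 counts throughout, and lymphocyte markers to at most 0.364 CPM. The 5 cholangiocyte markers summed to 9.13 to 20.7 CPM at 0 hours and 16.3 to 26.0 CPM at 48 hours, nearly all of it on Sox9 and Spp1, of which Spp1 was higher, while Epcam, Krt7 and Krt19 stayed at 0 to 0.129 CPM. The 3 mesothelial markers summed to at most 0.314 CPM and the 5 fat cell markers to 4.19 to 7.84 CPM at 0 hours and 3.89 to 5.09 CPM at 48 hours. Nearly all of the fat cell sum was on Cidec, while Adipoq, Plin1, Lep and Retn had 0 to 4 counts per library. In bulk libraries, fewer cells of a type and less RNA per cell cannot be told apart, and this holds for each gene below that other liver cells also transcribe.

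The promoter sequences of 27 of the 36 members were found in a RefSeq table for GRCm38.p6, as 300 bases that run from 250 before the transcript start to 50 after it. Shown here are the 2 members with a listed promoter that rose, C3 and C4bp, the neighbours C8a and C8b, of which only C8b passed the test, and Masp2, a falling gene with a motif close to its start. Each reads 5′ to 3′ on the strand of the gene, and capitals mark a match to the STAT-type motif TTCNNNGAA on either strand.

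C3 (chr17:57228087-57228386, minus strand): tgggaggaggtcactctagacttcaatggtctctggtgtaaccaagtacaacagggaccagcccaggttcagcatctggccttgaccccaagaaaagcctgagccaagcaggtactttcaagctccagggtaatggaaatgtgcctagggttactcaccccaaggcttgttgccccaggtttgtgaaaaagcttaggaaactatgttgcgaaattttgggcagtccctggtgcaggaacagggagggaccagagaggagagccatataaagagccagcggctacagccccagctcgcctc

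C4bp (chr1:130661569-130661868, minus strand): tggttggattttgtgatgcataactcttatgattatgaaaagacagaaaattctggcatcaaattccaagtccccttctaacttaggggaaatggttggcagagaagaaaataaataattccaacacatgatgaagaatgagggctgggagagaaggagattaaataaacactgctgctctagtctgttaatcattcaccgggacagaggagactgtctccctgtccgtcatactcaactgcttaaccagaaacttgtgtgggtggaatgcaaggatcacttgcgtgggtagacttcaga

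C8a (chr4:104876349-104876648, minus strand): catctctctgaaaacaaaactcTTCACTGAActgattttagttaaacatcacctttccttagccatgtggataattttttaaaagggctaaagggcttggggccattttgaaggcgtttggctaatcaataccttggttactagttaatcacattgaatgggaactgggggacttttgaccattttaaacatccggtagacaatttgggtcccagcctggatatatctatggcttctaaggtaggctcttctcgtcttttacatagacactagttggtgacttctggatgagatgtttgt

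C8b (chr4:104766067-104766366, plus strand): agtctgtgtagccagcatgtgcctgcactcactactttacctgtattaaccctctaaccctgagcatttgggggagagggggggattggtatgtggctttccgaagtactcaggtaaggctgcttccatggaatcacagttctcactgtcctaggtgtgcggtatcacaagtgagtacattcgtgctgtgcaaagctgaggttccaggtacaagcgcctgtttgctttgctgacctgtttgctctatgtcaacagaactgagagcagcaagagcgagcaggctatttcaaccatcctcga

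Masp2 (chr4:148602294-148602593, plus strand): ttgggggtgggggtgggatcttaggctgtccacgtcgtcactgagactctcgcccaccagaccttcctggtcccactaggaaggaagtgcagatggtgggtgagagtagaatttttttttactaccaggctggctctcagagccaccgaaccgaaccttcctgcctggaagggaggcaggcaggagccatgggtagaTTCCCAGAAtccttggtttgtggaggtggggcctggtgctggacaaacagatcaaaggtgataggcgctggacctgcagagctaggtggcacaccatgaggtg

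The STAT-type motif is the kind of site that STAT3 binds downstream of IL-6, the main inducer of acute-phase genes in liver. It was present in 6 of the 29 listed member promoters (20.7%), against 8.3% of the 32851 promoters of this length in the table. These 6 belong to C1ra, C7, C8a, Cfhr2, Masp2 and Vtn. In C8a its first base lies 228 bases before the start and in Masp2 it lies 53 bases before it. The C/EBP-type motif TTGNNCAA was found in 1 member promoter, at an alternative start of C8g (3.45%, against 6.4% of all), and the NF-kB-type motif GGNNTTNCC in 5 (17.2%, against 16% of all). In the Cfhr2 promoter the NF-kB-type and STAT-type matches overlap. None of the 3 letter patterns occurs in the listed windows of C3 and C4bp, and sites outside these windows or with other letters were not searched. These matches are descriptions of sequence and were not set against the expression changes by any test.

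C3, the central component that all pathways cleave, was the most abundant complement transcript and rose. C3 (ENSMUSG00000024164.15; chromosome 17, 57203970 to 57228136, minus strand, GRCm38) stood at 12061, 13634 and 11983 CPM at 0 hours and 23236, 17581 and 17656 CPM at 48 hours, after TMM normalization of the library sizes. Each library at 48 hours exceeded each one at 0 hours, with replicate 1 the highest. The increase was 1.55-fold (log2 fold change 0.63, SE 0.19, edgeR adjusted p = 0.0221). Without replicate 1 or replicate 3 at 0 hours, the log2 fold change was 0.60 (edgeR adjusted p = 0.0849) and 0.59 (edgeR adjusted p = 0.0829), no longer past the threshold, with a change of nearly the same size from fewer libraries. A block on replicate number, with all libraries kept, gave 0.62 (edgeR adjusted p = 0.0631), which also did not pass. C3 alone held 44.3% ± 1.37 (SD, n = 3) of the summed CPM of all 36 members at 0 hours and 56.3% ± 3.98 (SD, n = 3) at 48 hours. Without C3, the other 35 genes summed to 15739 ± 274 CPM (SD, n = 3) at 0 hours and 14988 ± 656 CPM (SD, n = 3) at 48 hours.

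The genes of the alternative pathway proper gave little signal. Factor B (Cfb), the protease component of the alternative C3 convertase, had 1.60 to 2.45 CPM at 0 hours and 1.71 to 2.14 CPM at 48 hours, and the groups overlapped (log2 fold change -0.07, SE 0.23, edgeR adjusted p = 0.836). The annotated transcript Gm20547, on the same strand, overlaps 79.5% of the exon bases of Cfb and 42.8% of those of C2. Gm20547 itself had 0 counts in all 6 libraries, but C2 or Cfb overlaps 100% of its exon bases. Its reads may have been set aside as ambiguous, so the 0 counts do not show that it is silent. Between 4.27% and 5.29% of the reads in each file were listed as ambiguous between genes. How many of them were Cfb or C2 reads was not tested, so the levels of both are uncertain. Properdin (Cfp), which stabilises the alternative convertase and is made by myeloid cells, had 6.30 to 10.2 CPM at 0 hours and 6.43 to 8.15 CPM at 48 hours (log2 fold change -0.25, SE 0.19, edgeR adjusted p = 0.329). Adipsin (Cfd), the protease that cleaves factor B, had 0 to 4 counts per library. Among the fat cell markers, Adipoq had at most 0.0681 CPM and Lep had 0 counts in every library.

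Of the classical pathway genes, 5 of the 9 tested fell, 1 rose and 3 did not pass, against 19.3% lower and 21.4% higher over all genes tested. The genes for the C1 proteases fell together. C1ra, which encodes the protease that activates C1s, had 357, 357 and 366 CPM at 0 hours and 198, 194 and 185 CPM at 48 hours. It fell 1.87-fold, with no overlap between the groups (log2 fold change -0.91, SE 0.11, edgeR adjusted p = 0.000127). C1s1, the gene of the protease that cleaves C4 and C2, had 356, 405 and 376 CPM at 0 hours and 235, 236 and 252 CPM at 48 hours, a 1.57-fold decrease, again without overlap (log2 fold change -0.65, SE 0.12, edgeR adjusted p = 0.00143). C1rl, a related protease gene beside C1ra, had 197, 187 and 207 CPM at 0 hours and 117, 129 and 145 CPM at 48 hours (log2 fold change -0.60, SE 0.12, edgeR adjusted p = 0.00275). Its libraries were separated by time point as well.

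The C1r and C1s genes have close copies in mouse. Of the 50-base stretches in the transcripts of C1ra, 48.0% also occur in C1rb, and 21.9% of those of C1s1 occur in C1s2. The files list 0 reads as aligned to several places, so reads from the shared stretches may be missing from both copies. C1s2 had 1 to 4 counts per library and C1rb 2 to 4, around the floor of 3 counts. The antisense gene Gm16567 covers 18.4% of the exon bases of C1s1, and whether reads were counted by strand is not given in the sources used here.

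C2, the protease component of the classical and lectin C3 convertase, had the largest decrease of the pathway. It stood at 26.4, 26.6 and 21.7 CPM at 0 hours and 8.97, 9.15 and 10.9 CPM at 48 hours, with the groups far apart. This was a 2.57-fold fall (log2 fold change -1.36, SE 0.13, edgeR adjusted p = 2.74e-05). The overlap with Gm20547 given above limits how far its level can be read.

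C4b and C4a, the 2 copies of the C4 gene, moved in opposite directions. The annotation lists C4b as protein-coding and C4a as a processed transcript. C4b (ENSMUSG00000073418.4; chromosome 17, 34728380 to 34743882, minus strand), which encodes the C4 that forms part of that convertase, had 2256, 2308 and 2251 CPM at 0 hours and 1727, 1580.3 and 1723 CPM at 48 hours and fell 1.35-fold (log2 fold change -0.44, SE 0.14, edgeR adjusted p = 0.026). C4a (ENSMUSG00000015451.16; chromosome 17, 34809092 to 34823464, minus strand), also called Slp for sex-limited protein, had 102, 72.7 and 58.7 CPM at 0 hours and 139, 131 and 338 CPM at 48 hours and rose (log2 fold change 1.38, SE 0.34, edgeR adjusted p = 0.00878). Neither gene's groups overlapped, but replicate 3 at 48 hours stood apart, with 2.58 times the C4a level of the lowest library at that time. Without that library, the log2 fold change of C4a was 0.80 (edgeR adjusted p = 0.0108). The decrease of C4b lost its call without replicate 1 or 3 at 0 hours or without replicate 2 or 3 at 48 hours. Its log2 fold changes were then -0.45 (edgeR adjusted p = 0.0642), -0.45 (edgeR adjusted p = 0.0632), -0.40 (edgeR adjusted p = 0.107) and -0.45 (edgeR adjusted p = 0.0538). Without TMM factors, on library size only, the value was -0.24 (edgeR adjusted p = 0.2). With a block on replicate number C4b stood at -0.44 (edgeR adjusted p = 0.0744) and did not pass. C4a shares 30.6% of its 50-base stretches with C4b, and C4b 34.6% with C4a. Reads from these stretches may be missing from both levels, and where they were counted was not tested.

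The subunits of C1q, the recognition molecule of the classical pathway, did not pass the test. C1qa had 9.03 to 14.8 CPM at 0 hours and 11.9 to 13.5 CPM at 48 hours (log2 fold change -0.03, SE 0.18, edgeR adjusted p = 0.904). C1qb had 9.10 to 13.3 CPM at 0 hours and 13.0 to 15.9 CPM at 48 hours (log2 fold change 0.26, SE 0.16, edgeR adjusted p = 0.224) and C1qc 9.71 to 13.1 CPM at 0 hours and 12.7 to 13.3 CPM at 48 hours (log2 fold change 0.12, SE 0.14, edgeR adjusted p = 0.534). In each gene the groups overlapped, and replicate 1 at 0 hours was the lowest library. Kupffer cells are the main source of C1q in liver. The Kupffer cell markers, which were also lowest in that library, stood beside these genes as given above, and their part in the C1q values was not tested. With library size only, C1qb passed the threshold at a log2 fold change of 0.47 (edgeR adjusted p = 0.0432).

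**Figure D2:**
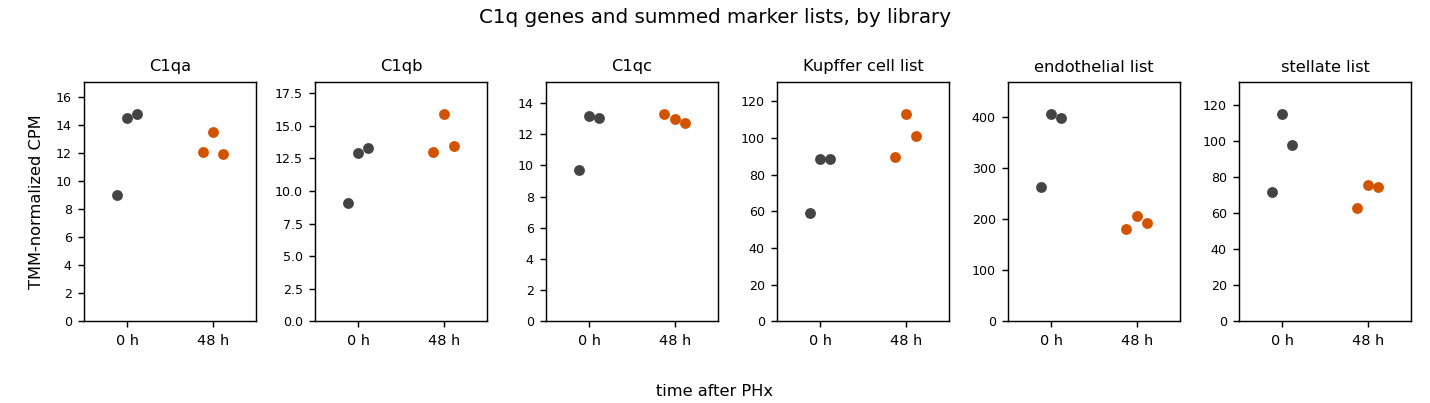
TMM-normalized CPM (y axes, linear from 0) of C1qa, C1qb and C1qc and of the summed Kupffer cell, endothelial and stellate cell marker lists, by library at 0 hours and 48 hours after PHx (x axis). Each point is 1 library, in the order of the replicate numbers; in each panel the lowest library at 0 hours is replicate 1, and the endothelial list is lower in all 3 libraries at 48 hours.

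In the lectin pathway, 3 of 5 genes fell and none rose, against 19.3% lower over all genes tested and 39.7% among those of 100 CPM or more. The genes of the MBL-associated proteases, which cleave C4 and C2 once lectins have bound sugars, both fell. Counts per gene do not tell their transcripts apart. Masp1 had 394, 385 and 386 CPM at 0 hours and 248, 227 and 218 CPM at 48 hours (log2 fold change -0.75, SE 0.12, edgeR adjusted p = 0.000563). Masp2, the protease that cleaves C4, had 312, 308 and 301 CPM at 0 hours and 195, 212 and 178 CPM at 48 hours (log2 fold change -0.66, SE 0.12, edgeR adjusted p = 0.00137). Neither gene's groups overlapped. The gene Tardbp on the opposite strand covers 54.9% of the exon bases of Masp2, which makes its counts less certain than those of Masp1.

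Of the mannose-binding lectin genes, Mbl1 passed the test and Mbl2 did not. Mbl1, the gene for mannose-binding lectin A, had 131, 134 and 133 CPM at 0 hours and 91.8, 82.3 and 86.9 CPM at 48 hours, a 1.52-fold fall without overlap (log2 fold change -0.61, SE 0.10, edgeR adjusted p = 0.000916). Mbl2, the gene for mannose-binding lectin C, had 103, 139.5 and 116 CPM at 0 hours and 94.7, 134 and 123 CPM at 48 hours, with the groups interleaved (log2 fold change -0.03, SE 0.16, edgeR adjusted p = 0.893). Within each library, the log2 ratio of Mbl1 to Mbl2 per length was -0.18, -0.58 and -0.33 at 0 hours and -0.57, -1.23 and -1.03 at 48 hours. The mean ratio differed by -0.58, and 1 library at 48 hours lay just above the lowest at 0 hours (two-sided exact permutation test, p = 0.2, where 3 against 3 cannot go below 0.1). Ficolin A (Fcna), a lectin of macrophages, had 2.45 to 5.58 CPM at 0 hours and 2.46 to 3.19 CPM at 48 hours (log2 fold change -0.60, SE 0.28, edgeR adjusted p = 0.114). Summed Kupffer cell markers were higher and endothelial markers lower at 48 hours, and the part of other cells in the Fcna values was not tested. The lowest Fcna library at 0 hours was replicate 1, which also had the lowest Kupffer cell, endothelial and stellate cell marker sums at that time. Without that library the log2 fold change of Fcna was -0.88 (edgeR adjusted p = 0.0118), without replicate 2 at 0 hours it was -0.36 (edgeR adjusted p = 0.348), and without any 1 of the other 4 libraries it also did not pass.

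In the terminal pathway, 3 of the 6 genes tested fell and none rose. Over all genes tested, 19.3% were lower, and among those of 100 CPM or more 39.7% were lower. A group this small was not tested against these shares. C5, C8α and C9 transcripts did not pass, whereas C6 and the other subunits of C8 fell. Hc, the gene for C5, whose cleavage starts the membrane attack complex, had 1658 to 1843 CPM at 0 hours and 1528 to 1809 CPM at 48 hours (log2 fold change -0.11, SE 0.14, edgeR adjusted p = 0.572). C9, the subunit that forms the ring of the pore, had 619 to 688 CPM at 0 hours and 459 to 710.4 CPM at 48 hours (log2 fold change -0.20, SE 0.17, edgeR adjusted p = 0.382). Its 48-hour libraries spread on both sides of those at 0 hours. C6, which binds C5b, had 432, 382 and 316 CPM at 0 hours and 219.5, 186 and 324 CPM at 48 hours and fell 1.55-fold (log2 fold change -0.63, SE 0.20, edgeR adjusted p = 0.0299). It is the only called member whose groups overlapped, because replicate 3 at 48 hours lay above the lowest library at 0 hours. Its call was lost without replicate 1 or 2 of either time point, at log2 fold changes of -0.53 (edgeR adjusted p = 0.101), -0.63 (edgeR adjusted p = 0.0616), -0.57 (edgeR adjusted p = 0.0785) and -0.47 (edgeR adjusted p = 0.112), and with library size only, at -0.43 (edgeR adjusted p = 0.129). C7, which follows C6 in the complex, had 0 to 2 counts per library, below the floor, so C7 transcripts were not detectable at this depth. Each of the 6 tested genes had its highest 48-hour value in replicate 3.

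The 3 genes of C8, which encode the chains of 1 protein, had unequal changes, with C8b and C8g lower and C8a not past the threshold. C8a (ENSMUSG00000035031.15; chromosome 4, 104815679 to 104876398, minus strand) had 802, 850.0 and 719.6 CPM at 0 hours and 716, 663 and 798 CPM at 48 hours, and the groups overlapped (log2 fold change -0.12, SE 0.14, edgeR adjusted p = 0.51). C8b (ENSMUSG00000029656.13; chromosome 4, 104766317 to 104804548, plus strand) had 603, 531 and 473 CPM at 0 hours and 243, 258 and 319 CPM at 48 hours and fell 1.96-fold (log2 fold change -0.97, SE 0.15, edgeR adjusted p = 0.000584). C8g (ENSMUSG00000015083.11; chromosome 2, 25498651 to 25501719, minus strand), the gene of the lipocalin chain that is joined to C8α by a disulfide bond, had 155, 151 and 171 CPM at 0 hours and 61.2, 59.0 and 71.2 CPM at 48 hours and fell 2.49-fold (log2 fold change -1.31, SE 0.12, edgeR adjusted p = 1.45e-05). For C8b and C8g all libraries at 48 hours lay below all at 0 hours.

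The ratio of 2 genes within a library does not depend on how the library was scaled. Per length, the log2 ratio of C8b to C8a was 0.10, -0.17 and -0.09 at 0 hours and -1.04, -0.85 and -0.81 at 48 hours, a difference of -0.85. The log2 ratio of C8g to C8a was -1.09, -1.21 and -0.79 at 0 hours and -2.26, -2.21 and -2.20 at 48 hours, a difference of -1.19. In both pairs the groups were fully apart (exact permutation test, two-sided, p = 0.1 each, the smallest p that 3 against 3 allows, and 0.22 after adjustment over the 11 pairs computed). At 0 hours C8b and C8a were nearly equal per length, and at 48 hours C8b stood at a mean log2 ratio of -0.90 to C8a.

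Among the other pairs, the ratio of C2 to C4b fell by 0.92 and that of C6 to Hc fell by 0.55 on the log2 scale, while that of C1s1 to C1ra rose by 0.25. Each of these 3 had no overlap between the groups, with the same exact permutation p = 0.1 and adjusted p = 0.22. The ratios of Masp1 to Masp2, of C1qa and C1qb to C1qc, of C9 to Hc, of Cfb to Cfi and of Mbl1 to Mbl2 overlapped between the time points (exact permutation p between 0.2 and 0.6). The log2 ratio of Masp1 to Masp2 changed by -0.09. That of C7 to Hc could not be computed, since C7 had 0 counts in some libraries.

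**Figure D3:**
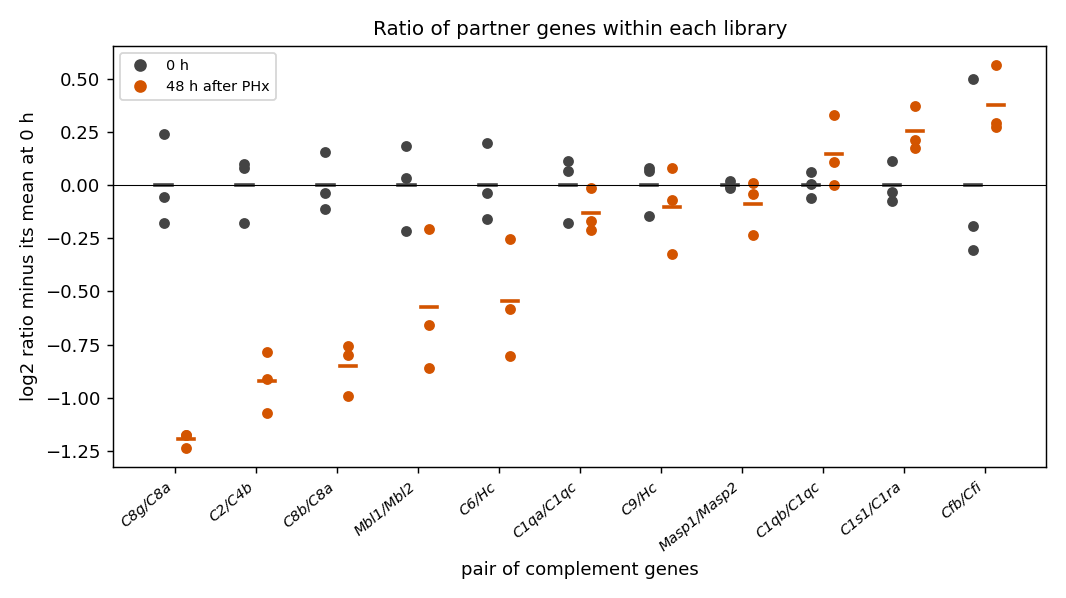
Log2 ratio of counts per kb of 2 complement genes within each library, minus the mean ratio at 0 hours (y axis), for 11 pairs (x axis), with grey points for 0 hours and orange points for 48 hours after PHx. Each point is 1 library and short lines are means; C8g/C8a, C2/C4b, C8b/C8a and C6/Hc lie lower and C1s1/C1ra lies higher in all 3 libraries at 48 hours.

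Of the 8 regulator genes, C4bp and Clu rose, Cfi, Cfhr2 and Cd59a fell, and Serping1, Vtn and Cd55 did not pass. Over all genes tested, 21.4% were higher and 19.3% were lower. C4bp (ENSMUSG00000026405.14; chromosome 1, 130634773 to 130661632, minus strand), whose product C4b-binding protein blocks the classical and lectin convertase, had 372, 409 and 417 CPM at 0 hours and 862, 626 and 669 CPM at 48 hours. All libraries at 48 hours were higher, replicate 1 most, and the rise was 1.80-fold (log2 fold change 0.85, SE 0.15, edgeR adjusted p = 0.00136). Clusterin (Clu; ENSMUSG00000022037.15; chromosome 14, 65968483 to 65981547, plus strand), a chaperone that binds the forming membrane attack complex, had 2508, 2582 and 2441 CPM at 0 hours and 3981, 3829 and 3881 CPM at 48 hours. Its replicates were close together at both time points and the rise was 1.55-fold (log2 fold change 0.63, SE 0.14, edgeR adjusted p = 0.00502). C4bp and C4b, the gene of its ligand, moved in opposite directions.

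Factor I (Cfi), the protease that inactivates C3b and C4b with the help of cofactors such as C4b-binding protein, had 421, 546 and 480.0 CPM at 0 hours and 372, 343 and 352 CPM at 48 hours and fell 1.36-fold without overlap (log2 fold change -0.44, SE 0.13, edgeR adjusted p = 0.0238). Its call was lost without replicate 3 at 0 hours or replicate 2 or 3 at 48 hours, at log2 fold changes of -0.45 (edgeR adjusted p = 0.0579), -0.41 (edgeR adjusted p = 0.0919) and -0.43 (edgeR adjusted p = 0.063), and with library size only, at -0.24 (edgeR adjusted p = 0.187). A block on replicate number also ended the call of Cfi, at -0.43 (edgeR adjusted p = 0.0598). Cfhr2 had 197, 253 and 253 CPM at 0 hours and 159, 154 and 167 CPM at 48 hours (log2 fold change -0.55, SE 0.13, edgeR adjusted p = 0.00698), and -0.35 (edgeR adjusted p = 0.0602) with library size only. It shares 29.2% of its 50-base stretches with other genes.

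Serping1, the gene of C1 inhibitor, which removes C1r and C1s from activated C1 and also blocks the MASPs, had 985 to 1182 CPM at 0 hours and 928 to 1058 CPM at 48 hours (log2 fold change -0.08, SE 0.14, edgeR adjusted p = 0.671). Its groups overlapped, while those of all 4 tested genes for its protease targets C1ra, C1s1, Masp1 and Masp2 were lower at 48 hours. Vitronectin (Vtn), which keeps forming attack complexes from inserting into membranes, had 2351 to 2486 CPM at 0 hours and 2150.4 to 2225 CPM at 48 hours. Its libraries did not overlap, but the difference did not pass the test (log2 fold change -0.15, SE 0.14, edgeR adjusted p = 0.407).

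The membrane-bound regulators were low in these preparations. Cd59a, a lipid-anchored inhibitor of C9 insertion, had 22.7, 21.2 and 29.6 CPM at 0 hours and 9.84, 13.5 and 14.3 CPM at 48 hours and fell 1.95-fold without overlap (log2 fold change -0.97, SE 0.17, edgeR adjusted p = 0.00133). Cd55 (decay-accelerating factor) had 5.69 to 8.64 CPM at 0 hours and 5.49 to 6.15 CPM at 48 hours (log2 fold change -0.31, SE 0.18, edgeR adjusted p = 0.193). Endothelial cells carry both proteins. All 9 endothelial markers were lower at 48 hours, and their part in the Cd59a difference was not tested.

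The anaphylatoxin receptors, which bind C3a and C5a, were the lowest of the tested members. C3ar1 had 1.06 to 1.66 CPM at 0 hours and 1.10 to 1.46 CPM at 48 hours (log2 fold change -0.11, SE 0.26, edgeR adjusted p = 0.763). C5ar1 had 0.484 to 0.633 CPM at 0 hours and 0.168 to 0.565 CPM at 48 hours, from 6 to 21 counts per library (log2 fold change -0.45, SE 0.42, edgeR adjusted p = 0.425). Both sets of libraries overlapped, and these receptors are chiefly myeloid.

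**Figure D4:**
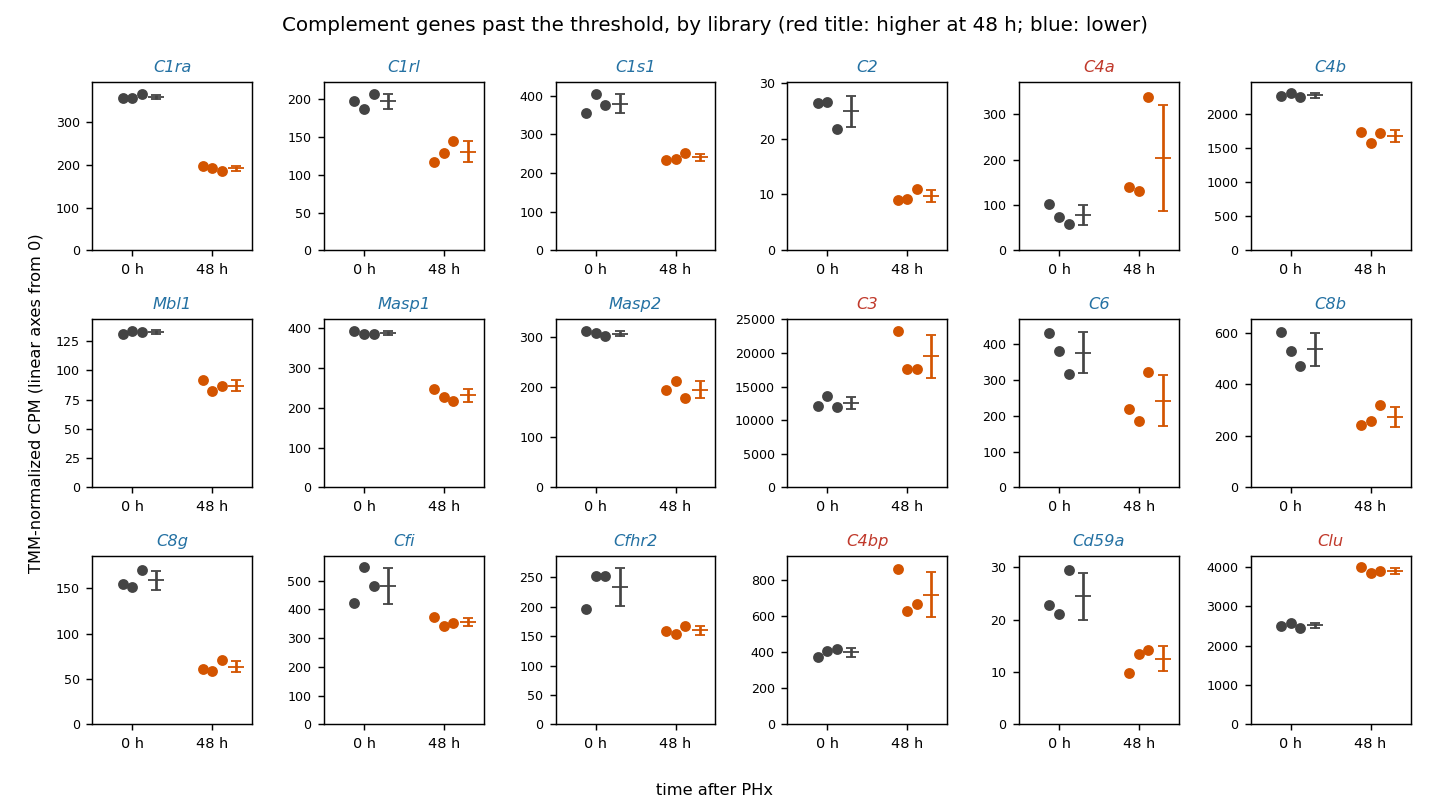
TMM-normalized CPM (y axes, linear from 0) of the 18 complement genes with an adjusted p under 0.05, by library at 0 hours and 48 hours after PHx (x axis). Points are libraries in the order of the replicate numbers and the bars beside them give mean ± SD (n = 3); C6 is the only panel in which the points of the 2 time points overlap in height.

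Per length, complement transcripts spanned several orders of magnitude. On the scale of CPM per kb of exon that no other gene on the same strand overlaps, which takes the overlapped bases as not counted, C3 stood at 2442 ± 181 (SD, n = 3) at 0 hours, followed by Vtn at 1198 ± 34.9 and Clu at 730.4 ± 20.6. Serping1 came next with 459 ± 44.0, C4b with 399 ± 5.60 and Hc with 280.4 ± 14.8, and Hc and C9 overlapped. C8a, Cfi and C8b formed a group with overlapping libraries around 217 CPM per kb. C1s1, Cfhr2, C1ra, Mbl2, C8g, C6 and Masp2 followed between 121 and 92.9 CPM per kb, each overlapping its neighbour in the order. The C1q genes stood at 6.19 to 12.3 CPM per kb. These lengths join the exons of all annotated transcripts of a gene and keep bases shared with near copies. If shared reads were not counted, the levels of C1ra, C1s1, C4b, C4a and Cfhr2 read too low.

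At 48 hours C3 reached 3789.8 ± 631 CPM per kb (SD, n = 3). Clu, at 1134 ± 22.6, and Vtn, at 1078 ± 18.3, then stood in that order, and the 3 Clu libraries lay above the 3 Vtn libraries. C4bp moved from rank 20 to rank 12 among the 36 genes and C8g from rank 15 to rank 20. The genes around these ranks are close in level, and the ranks carry no test.

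**Figure D5:**
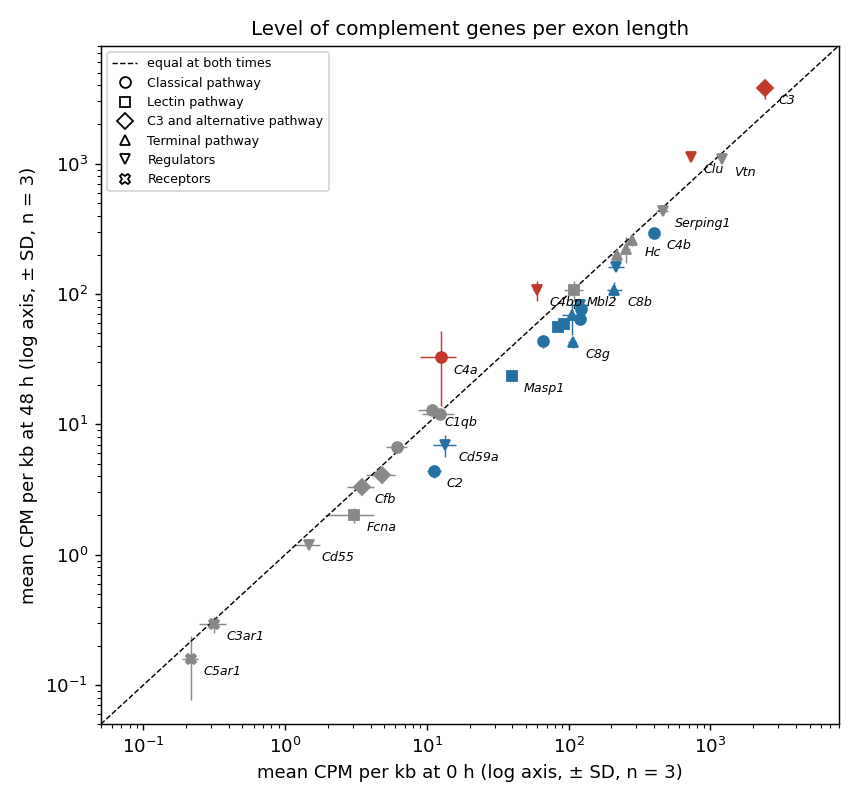
Mean CPM per kb of exon at 48 hours after PHx (y axis, log) against that at 0 hours (x axis, log) for the 33 tested complement genes, with bars of ± SD (n = 3), symbols by pathway role and colours by call as in the plot of fold changes. The dashed line marks equal levels; C3 lies highest, and the called genes C4a, C4bp, Clu and C3 lie above the line, as do C1qb and C1qc, which did not pass the test.

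A wider list of 25 complement-related genes outside the members, drawn up from general knowledge, was tested in the same fit. Of these, 18 passed the filter, 2 were higher, 8 were lower and 8 did not pass, against 21.4% higher and 19.3% lower over all genes tested, with a median log2 fold change of -0.35. The largest change was in Apcs, which encodes serum amyloid P component, an acute-phase pentraxin of the mouse that can bind C1q. Apcs had 31.8, 38.2 and 33.6 CPM at 0 hours and 565, 274 and 147 CPM at 48 hours (log2 fold change 3.25, SE 0.40, edgeR adjusted p = 0.000128). Every library at 48 hours was above those at 0 hours, with replicate 1 the highest, as it was for C3, C4bp and Clu. They differed widely among themselves, and without replicate 1 at 48 hours the log2 fold change was 2.604 (edgeR adjusted p = 1.78e-05).

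Cd59b, Colec10 and Colec11 were among the genes with the largest decreases on the wider list. Cd59b, the second Cd59 gene, went from 3.75, 4.26 and 5.49 CPM to 1.46, 2.24 and 1.69 CPM (log2 fold change -1.32, SE 0.23, edgeR adjusted p = 0.00126). Colec10 and Colec11 encode collectins that start the lectin pathway. Colec10 went from 6.92, 12.8 and 11.4 CPM to 3.98, 5.21 and 3.72 CPM (log2 fold change -1.27, SE 0.23, edgeR adjusted p = 0.00165), and Colec11 from 3.27, 5.10 and 4.46 CPM to 1.60, 1.99 and 1.94 CPM (log2 fold change -1.21, SE 0.22, edgeR adjusted p = 0.00158). All were low. The endothelial markers fell beside them, while of the 7 stellate cell and fibroblast markers 1 was higher and 1 lower. The part of other cell types was not tested. Another 4 decreases, named after their values were seen, were in Cpn1 and Cpn2, the subunits of carboxypeptidase N, which inactivates anaphylatoxins, in the pentraxin gene Crp and in Cfhr3, with log2 fold changes from -0.70 to -0.41. The call of Crp was lost without any 1 library other than replicate 1 at 48 hours, and that of Cfhr3 without replicate 3 at 0 hours or any 1 library at 48 hours, with log2 fold changes then from -0.47 to -0.32 for Crp and from -0.48 to -0.32 for Cfhr3. With library size only, the log2 fold changes were -0.31 (edgeR adjusted p = 0.0792) for Cpn1, -0.21 (edgeR adjusted p = 0.222) for Crp and -0.25 (edgeR adjusted p = 0.226) for Cfhr3, and none of these 3 passed.

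Several members are neighbours in the genome, and neighbours did not share a direction throughout. On chromosome 6, C1rl lies 1761 bases from C1ra and C1ra lies 6901 bases from C1s1, and all fell. On chromosome 17, C4b and C4a are 65209 bases apart and moved in opposite directions, and C2 lies 85 bases from Cfb. On chromosome 4, C8b and C8a are 11130 bases apart on opposite strands, with the 3′ ends facing each other, and only C8b passed the test. The C1q genes, also on chromosome 4, lie in the order C1qb, C1qc and C1qa with gaps of 3616 and 2851 bases, and none passed. On chromosome 1, C4bp, which rose, lies 172028 bases from Cd55, which had a log2 fold change of -0.31.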

How the data were processed

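RNA-Seq libraries of primary hepatocytes, 3 at 0 hours and 3 at 48 hours after PHx, were used as deposited. Per the submitters' processing notes, the authors used FastQC 0.11.5, Trim Galore 0.6.4, STAR 2.6 and HTSeq 0.12.4, and the deposited values are raw read counts per gene, 1 file per library. Neither the counting mode nor the strand setting is given in the sources used here. All 55450 gene identifiers matched GENCODE M21 (GRCm38). Reads listed as lying on no gene, 24.3% to 32.7% per library, and the other summary lines were left out of library sizes and tests.

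Genes that reached 10 counts in 3 or more libraries were fitted on time alone with edgeR 4.0.16 (R 4.3.3; TMM factors, quasi-likelihood test), with Benjamini-Hochberg adjustment over all 17037 genes and a threshold of 0.05. The SE is the log2 fold change divided by the square root of F. CPM values use TMM library sizes. The fit was tested on simulated counts. DESeq2 1.42.0, other scalings, no filter, a replicate block and leaving out each library were the alternatives. Ratios of 2 genes were tested in SciPy 1.17.1 by exact permutation. Every pair of replicates differed beyond counting noise, so none was treated as deposited again under another name. Per the study's methods the libraries come from different hepatocyte preparations.

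All 36 members are named, those past the threshold with each library's value and the others with their range. C8a and Mbl2 are given by library as partners of called genes. Of the wider list, the 4 highest and 4 lowest called genes, C1rb and near copies of members were to be named, and some of these are not reported here. The members, the lists and the tests were chosen with earlier results of these data known. Shared 50-base stretches and exon overlaps were counted in the GENCODE M21 transcripts and annotation. Cfhr4 matched no gene name and was not analysed here.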

Additional observations from a re-analysis of the deposited data

How the results depend on the processing

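Of the 18 complement genes called, 13 kept their direction and call under all 11 alternatives run for single genes (3 higher and 10 lower), and none of the 18 changed sign. The exceptions were C3, C4b, C6, Cfi and Cfhr2. The counts of higher and lower members were 4 and 14 with DESeq2 and with RLE factors, and 4 and 15 without the filter, where Fcna was added. With library size only, 2108 genes in all and 5 of the wider complement list were lower, and the log2 fold changes of uncalled members became 0.17 for C1qa, 0.18 for Mbl2, 0.13 for Cfb, 0.093 for Hc, 0.079 for C8a, 0.014 for C9, 0.12 for Serping1, 0.050 for Vtn and 0.098 for C3ar1. When a log2 fold change of 1 or more in size was also required, 1651 genes were higher and 1353 lower, with 1 and 2 of the members and 1 and 4 of the wider list. Leaving out 1 library in turn gave 2649 to 3395 higher and 2540 to 3166 lower genes, 3 to 4 and 11 to 13 members, and 1 to 2 and 6 to 9 of the wider list, with fewer libraries in each fit. Over these fits the log2 fold change ranged from -0.24 to 0.079 for C1qa, -0.017 to 0.18 for C1qc, -0.14 to 0.099 for Mbl2, -0.22 to 0.090 for Cfb and -0.27 to 0.051 for C3ar1, and the C9 to Hc ratio difference from -0.20 to 0.0045. The replicate numbers did not pair the libraries (correlations of same-numbered deviations 0.034, -0.067 and -0.14). The replicate block gave 3237 higher and 2884 lower genes, 3 and 12 members, and 1 and 6 of the wider list. C3 (edgeR adjusted p = 0.0631), C4b (0.0744) and Cfi (0.0598) then lost their calls, as did Crp (0.0727) and Cfhr3 (0.0656) of the wider list. The cause of these changes was not tested. Depth limits the statements on C7, Cfd and C1s2, which lie near the floor of 3 counts, and on C5ar1.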
